A study of Homo sapiens with 6 samples.

Results

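The NF-kB family was followed through its 5 subunit genes, NFKB1, NFKB2, REL, RELA and RELB, and 5 genes of IkB inhibitors and related proteins, NFKBIA, NFKBIB, NFKBIE, NFKBIZ and BCL3. The 10 genes were chosen by symbol, with earlier results of these data known. They hold 94 of the 215170 transcripts in the deposited table and are 10 of its 63677 genes. RNA was sequenced from KMS27, an established line of malignant plasma cells from multiple myeloma. The series set 3 libraries of cells with HA-TAZ overexpression against 3 libraries labelled wild type, and asked which transcripts differ between them. TAZ, the product of WWTR1, is a transcriptional coactivator of the Hippo pathway, and HA is a peptide tag. The labels give neither the vector and promoter of HA-TAZ nor whether the cells are 1 clone. They state that libraries were made in triplicate from equal amounts of RNA and do not mention separate cultures, so p-values measure the spread between these libraries, which may be technical.

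NF-kB proteins bind DNA as pairs of subunits. RELA, REL and RELB carry domains that activate transcription, whereas NFKB1 and NFKB2 encode precursors that are processed to short DNA-binding partners. In resting cells IkB proteins hold the pairs in the cytoplasm. In the canonical route a kinase complex marks IkB proteins for destruction and frees pairs that contain RELA or REL, and in the alternative route the kinase encoded by MAP3K14 drives the processing of the NFKB2 precursor, which releases pairs with RELB. Several inhibitor and subunit genes are themselves targets of NF-kB, and mutations that activate the pathway are frequent in myeloma.

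Promoter sequences are shown because several family genes are known to be regulated by their own products through kappaB sites. The sequences come from the RefSeq promoter table for GRCh38.p14, in which a window runs from 250 bases before to 50 bases after a gene start. The table matched 14 windows of 8 members. RELB and NFKBIE were not matched. A match to the 10-base kappaB consensus on either strand was present in 9 of these 14 windows (64.3%) and in 2075 of the 35116 windows of the whole table (5.91%). Of the 8 matched members, 7 had a match in some window, and RELA had none. A match describes the letters of a window and is not evidence of binding. The 250 bases before the start are given for NFKBIA, the inhibitor with the highest level, and for 1 of the NFKB2 starts, with matches in capitals:
NFKBIA, chr14:35404750-35404999, minus strand: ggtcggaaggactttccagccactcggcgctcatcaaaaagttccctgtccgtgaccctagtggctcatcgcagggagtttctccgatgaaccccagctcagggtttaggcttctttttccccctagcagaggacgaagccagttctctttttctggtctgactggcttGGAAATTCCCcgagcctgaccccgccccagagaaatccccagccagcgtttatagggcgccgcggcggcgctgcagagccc
NFKB2, chr10:102394328-102394577, plus strand: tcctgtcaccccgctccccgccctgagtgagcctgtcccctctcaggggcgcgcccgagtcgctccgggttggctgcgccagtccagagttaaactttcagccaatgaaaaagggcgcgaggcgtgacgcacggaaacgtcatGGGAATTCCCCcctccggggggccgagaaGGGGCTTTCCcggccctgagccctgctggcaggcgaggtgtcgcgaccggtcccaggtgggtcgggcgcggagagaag

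For the other matches, windows of 30 bases are given in the same way. Blocks of 11 capitals are overlapping matches:
REL, chr2:60881517-60881546, plus strand: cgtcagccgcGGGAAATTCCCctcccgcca
NFKBIZ, chr3:101827757-101827786, plus strand: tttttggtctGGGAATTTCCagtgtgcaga
NFKBIZ, chr3:101849265-101849294, plus strand: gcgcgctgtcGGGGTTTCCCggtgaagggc
NFKB1, chr4:102501300-102501329, plus strand: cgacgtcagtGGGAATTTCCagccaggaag
NFKB2, chr10:102395519-102395548, plus strand: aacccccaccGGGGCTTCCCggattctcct
NFKB2, chr10:102395674-102395703, plus strand: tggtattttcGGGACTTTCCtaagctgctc
NFKBIB, chr19:38899931-38899960, plus strand: gggcgtggtgGGGAATTTCCCgcagggcgg
BCL3, chr19:44748700-44748729, plus strand: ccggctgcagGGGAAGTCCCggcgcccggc

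The first bases of these matches lay 47 bases before the start in REL, 49 in NFKB1, 28 in NFKBIB, and 223 and 239 in the windows of the 2 NFKBIZ starts. In BCL3 the match began 3 bases after the start. No library of this series measured binding or initiation at these windows.

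All values derive from TPM, which corrects abundance for the length of a transcript and states it as a share of a library. The depth of each library is not known from such values. Means in the authors' deposited table implied from 1129 estimated counts per library for NFKBIE to 11122 for NFKB2, so none of the members rested on few reads. WWTR1 was at 293 to 306 TPM in HA-TAZ libraries and at 1.69 to 2.69 TPM in controls. The columns for the controls carry a name that is in no label and were assigned to wild type by elimination, and these libraries are called control a, b and c. Wild type samples have HA in their titles too, and the labels do not say whether those cells hold a construct. Of 8 plasma cell markers, all were detected at a mean of at least 1 TPM and 1, CD38, fell in HA-TAZ libraries (log2 fold change −0.61, limma, adjusted p = 0.0226), while 5 were called lower as deposited and 2 with factors from protein-coding genes. Their summed level was 2777 to 3210 TPM in HA-TAZ libraries and 4266 to 4821 TPM in controls. JCHAIN alone held 2234 to 2618 and 3617 to 4082 TPM of it, whereas SDC1 was at 89.7 to 94.95 and 79.8 to 93.1 TPM. The part of this difference in the results below was not tested. Markers of T cells, myeloid cells, fibroblasts and epithelium, 4 genes each, summed to at most 4.01 TPM in any HA-TAZ library and 6.08 TPM in any control for any of these lists. The T cell list was at 1.26 to 1.40 TPM with HA-TAZ and 2.15 to 2.42 TPM in controls, and the epithelial list at 2.78 to 3.88 and 4.96 to 6.08 TPM. Most of the T cell sum was CD3G, at 1.103 to 1.25 and 1.64 to 1.86 TPM, while CD3E was at most 0.496 TPM in any library and CD3D was listed at 0 in every HA-TAZ library and in control a. In such bulk RNA, fewer cells of a type and less RNA per cell cannot be told apart.

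Most of the family was higher in HA-TAZ libraries. Of the 10 members, 8 rose and none fell. Because the members were chosen with earlier results of these data known, counts of members are descriptions. The largest changes were those of RELB and BCL3, with ratios of 2.35 and 2.26 between the scaled group means (1.91 and 1.83 as deposited), followed by NFKBIZ and NFKBIE. RELA, the main activating subunit of the canonical route, and NFKB1 did not pass the test. Libraries were compared as scaled TPM, in which the TPM of a library is divided by a factor that brings the typical gene to a common level. These factors came to 0.866, 0.967 and 0.890 for HA-TAZ 1 to 3 and 1.21, 1.09 and 1.06 for control a to c. The test was limma on log2(scaled TPM + 1) over 22651 genes, with p-values adjusted over all of them and a threshold of 0.05. Among all genes tested, 4.67% passed in the higher direction and 2.63% in the lower direction, and among the protein-coding genes 7.50% passed as higher. The members' median log2 fold change was 0.62, beside −0.03 for all genes. Ranked by log2 fold change among 11666 protein-coding genes, RELB was at position 47, BCL3 at 55, NFKBIZ at 76 and NFKBIE at 83. NFKB2, NFKBIA, NFKBIB and REL lay between positions 228 and 455, NFKB1 was at 2917 and RELA at 5238. In scaled TPM the groups were without overlap and higher in HA-TAZ for 9 members, against 20.2% of all genes, with RELA as the exception.

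**Figure D1:**
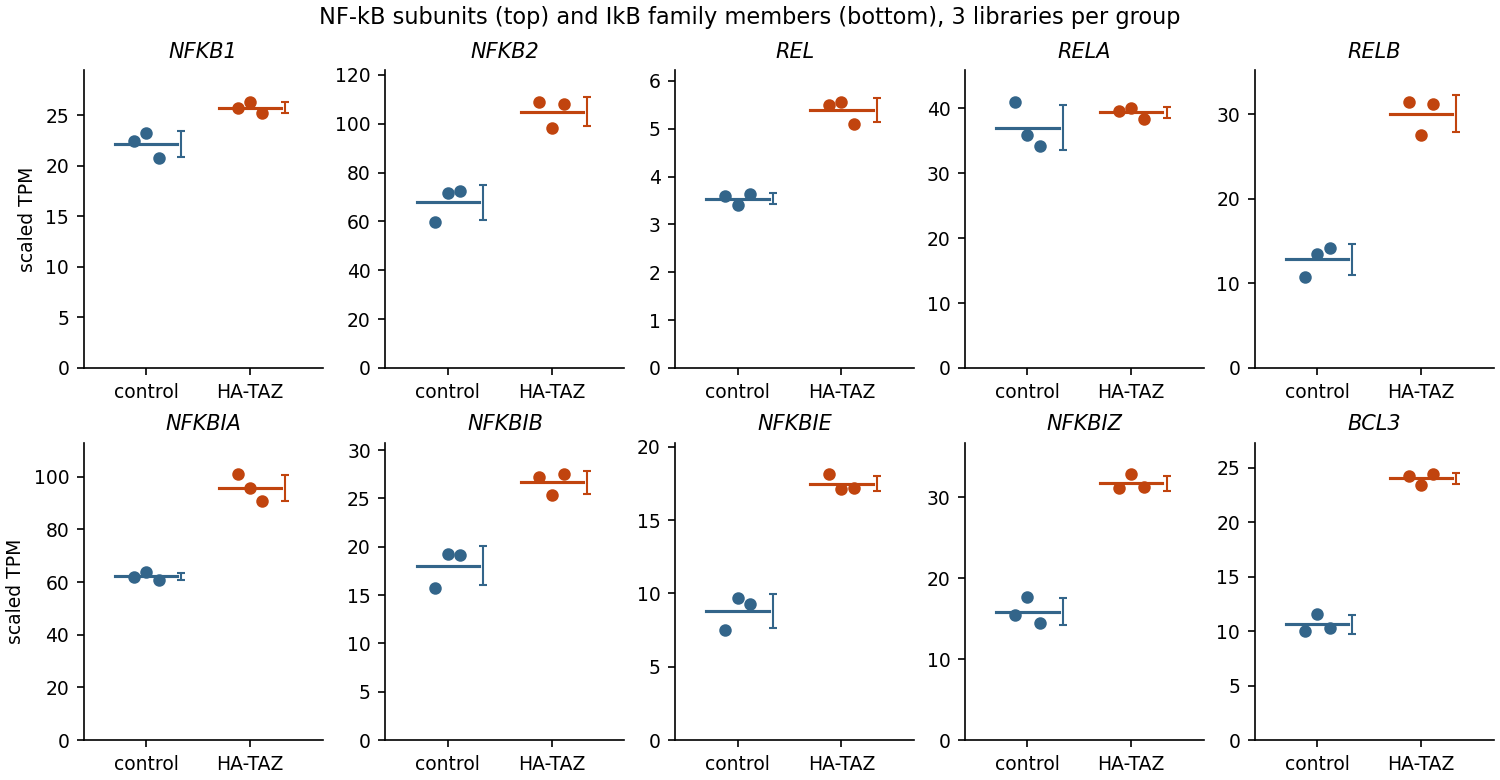
Scaled TPM of the 10 members in each library (points), with group means (lines) and SD (bars), 3 libraries per group, on linear axes from 0. In every panel but that of RELA the lowest HA-TAZ library lies above the highest control.

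Among the subunits RELB moved most, followed by NFKB2, and both belong to the alternative route. The limma interval of NFKB2, 0.40 to 0.85, overlapped that of REL, 0.30 to 0.68. The difference between NFKB2 and REL was not tested. RELB, the activating subunit that pairs with processed NFKB2, was at 27.2, 26.7 and 27.8 TPM in HA-TAZ 1 to 3 and at 13.02, 14.7 and 14.99 TPM in control a to c. The lowest HA-TAZ library lay far above the highest control. The scaled means were 30.1 ± 2.16 and 12.8 ± 1.81 (SD, n = 3 each), a ratio of 2.35, and the log2 fold change was 1.18 (SE 0.11, limma, adjusted p = 0.0106). NFKB2, the precursor of RELB's partner, was at 94.3, 95.1 and 96.0 TPM with HA-TAZ and 72.1, 78.2 and 76.5 TPM in controls. The HA-TAZ libraries were close together and all above the controls. The scaled means were 105 ± 5.84 and 67.9 ± 7.17 (SD, n = 3 each), and the fold change was 0.63 on the log2 scale (SE 0.09, limma, adjusted p = 0.0250).

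The 3 subunits of the canonical route had smaller fold changes, although that of REL was near that of NFKB2. The ratios between scaled group means were 1.52 for REL and 1.55 for NFKB2. With 0.1 in place of 1 added to the scaled TPM, their log2 fold changes were 0.59 and 0.63. REL, the activating subunit prominent in lymphocytes, was at 4.76, 5.37 and 4.54 TPM with HA-TAZ and 4.34, 3.71 and 3.85 TPM in controls. The lowest HA-TAZ library was only slightly above the highest control as deposited, and the distance grew with scaling. The log2 fold change was 0.49 (SE 0.08, limma, adjusted p = 0.0307). With TPM as deposited it was 0.25 and not called (limma, adjusted p = 0.132). NFKB1, the precursor of RELA's usual partner, was at 22.3, 25.5 and 22.5 TPM with HA-TAZ and 27.2, 25.3 and 21.96 TPM in controls. These ranges overlapped. The log2 fold change was 0.21 after scaling, with an interval from 0.07 to 0.35 and an adjusted p of 0.0764 (limma), and −0.080 as deposited. RELA was at 34.4, 38.8 and 34.2 TPM with HA-TAZ and 49.6, 39.2 and 36.2 TPM in controls, where control a was the highest library. Its log2 fold change was 0.09 (SE 0.07, limma, adjusted p = 0.446) with an interval from −0.09 to 0.27, and −0.20 as deposited. Changes of RELA as large as those of the 8 called members lay outside the scaled interval, but increases of up to 0.27 lay inside it.

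All 5 genes of the inhibitor group rose. NFKBIA encodes IkB-alpha, the inhibitor that retains RELA pairs and is resynthesised on NF-kB activation. It was at 87.3, 92.4 and 80.8 TPM with HA-TAZ and 75.0, 69.4 and 64.3 TPM in controls. The groups did not overlap. The log2 fold change was 0.61 (SE 0.05, limma, adjusted p = 0.00702), and 0.32 as deposited, which missed the threshold (limma, adjusted p = 0.0521). NFKBIB encodes IkB-beta, and was at 23.5, 24.5 and 24.5 TPM with HA-TAZ and 19.0, 21.0 and 20.3 TPM in controls. Its groups were apart as well, by a smaller distance. The log2 fold change was 0.54 (SE 0.09, limma, adjusted p = 0.0343), and 0.25 as deposited (limma, adjusted p = 0.0513). NFKBIE encodes IkB-epsilon, and was at 15.7, 16.6 and 15.3 TPM with HA-TAZ and 9.05, 10.6 and 9.82 TPM in controls. Every HA-TAZ library was well above every control. The log2 fold change was 0.92 (SE 0.10, limma, adjusted p = 0.0130).

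NFKBIZ and BCL3 encode atypical nuclear IkB proteins, which act on DNA-bound NFKB1 and NFKB2 products and can activate as well as restrain transcription. NFKBIZ was at 27.0, 31.8 and 27.8 TPM with HA-TAZ and 18.7, 19.4 and 15.3 TPM in controls. The groups did not overlap, with HA-TAZ 2 the highest. The scaled means were 31.8 ± 0.9503 and 15.9 ± 1.67 (SD, n = 3 each), and the log2 fold change was 0.96 (SE 0.08, limma, adjusted p = 0.00722). BCL3 was at 21.0, 22.7 and 21.7 TPM with HA-TAZ and 12.1, 12.6 and 10.9 TPM in controls. The scaled means were 24.0 ± 0.514 and 10.6 ± 0.850 (SD, n = 3 each), a ratio of 2.26. The log2 fold change was 1.11 (SE 0.07, limma, adjusted p = 0.00271), the lowest adjusted p of the family. NFKBID, a related nuclear IkB gene outside the 10 that was singled out after its values were seen, did not pass the test (log2 fold change 0.19, limma, adjusted p = 0.312).

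The calls differed in how they withstood the scaling and the loss of a library. With TPM as deposited the median of all genes was −0.27 and that of the members 0.32, and 5 members were called higher, RELB, NFKB2, NFKBIE, NFKBIZ and BCL3, where 1.15% of all genes were called higher and 13.5% lower. The groups as deposited were higher without overlap for 8 members, against 4.41% of all genes, and those of NFKB1 and RELA overlapped. With factors from protein-coding genes 8 members were called higher, against 2.91% of all genes. BCL3, NFKBIA and NFKBIZ were called in each of the 6 fits that left out 1 library. RELB was not called without HA-TAZ 1, HA-TAZ 3 or control b, at adjusted p of 0.0580, 0.0502 and 0.0505 (limma), and NFKBIE was not called without any 1 of the HA-TAZ libraries (limma, adjusted p = 0.0545 to 0.0664). NFKB2 and NFKBIB were called only in the fit without control a (limma, adjusted p = 0.0337 and 0.0406), and REL in none (limma, adjusted p = 0.0631 to 0.111). The number of members called was 3 without HA-TAZ 1, 4 without HA-TAZ 2, 3 without HA-TAZ 3, 7 without control a, 4 without control b and 5 without control c. In the same fits the share of all genes called higher was 0.419%, 0.415%, 0.667%, 1.43%, 0.503% and 1.49%, also below that of the fit to all libraries. The direction was the same in these fits for all 10 members.

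**Figure D2:**
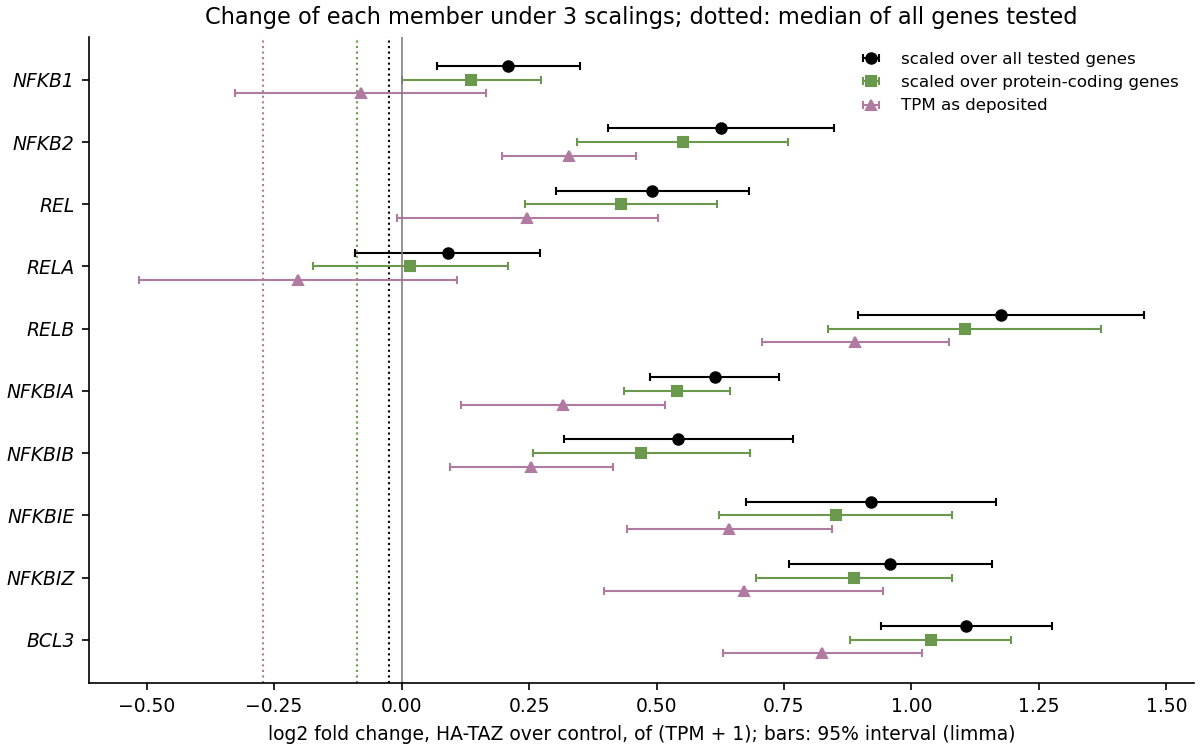
Log2 fold change of each member, HA-TAZ over control, with its 95% interval from limma, under the factors of all tested genes (circles), the factors of protein-coding genes (squares) and TPM as deposited (triangles). The dotted lines are the medians of all genes tested under each scaling, −0.03, −0.09 and −0.27, and NFKB1 and RELA are the members whose sign depends on the scaling.

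The highest members, NFKB2, NFKBIA and RELA, and the lowest, BCL3, NFKBIE and REL, kept their order between the groups. In between, NFKB1 lay above NFKBIB, NFKBIZ and RELB in controls, without overlap. In HA-TAZ libraries its mean lay below theirs. In TPM, which allows genes to be compared per length, NFKB2 was highest, then NFKBIA and RELA, and REL was lowest in both groups. The ranges of NFKB2 and NFKBIA overlapped in controls and were apart in HA-TAZ libraries. RELA came next in both groups without overlap with its neighbours. RELB was at 13.02 to 14.99 TPM in controls, below NFKBIB and NFKBIZ, and at 26.7 to 27.8 TPM in HA-TAZ libraries, overlapping NFKBIZ and above NFKBIB. In HA-TAZ libraries the range of NFKB1 overlapped those of NFKBIB and BCL3. In controls BCL3, at 10.9 to 12.6 TPM, stood apart from NFKB1, at 21.96 to 27.2 TPM.

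The balance between members was read as shares and ratios within each library, which do not depend on the scaling. As deposited, the 5 subunits summed to 186 ± 4.42 TPM with HA-TAZ and 160 ± 6.39 TPM in controls (SD, n = 3 each). Unlike the shares, this sum depends on the scaling. RELB made up 14.9, 13.9 and 15.01% of this sum in HA-TAZ 1 to 3 and 7.83, 9.14 and 9.77% in control a to c. RELA made up 18.8, 20.3 and 18.5% with HA-TAZ and 29.8, 24.3 and 23.6% in controls. Thus the RELB share was higher, and the RELA share lower, in every HA-TAZ library. NFKB1 was also lower as a share, at 12.5 ± 0.661% against 15.5 ± 1.04% (SD, n = 3 each), while the shares of NFKB2 and REL overlapped. The summed inhibitors were 0.952 ± 0.0315 of the summed subunits with HA-TAZ and 0.805 ± 0.0194 in controls (SD, n = 3 each), without overlap. This sum includes BCL3 and NFKBIZ, which can also activate transcription and had the largest fold changes of the inhibitor group. The ratio is therefore not a measure of inhibition, and it was not computed without these genes. Within the inhibitor sum NFKBIA made up 48.9 ± 1.29% with HA-TAZ against 53.8 ± 1.99%, and BCL3 12.3 ± 0.416% against 9.19 ± 0.281% (SD, n = 3 each), both without overlap. The exact permutation test gives p = 0.1 for any such separation of 3 against 3 libraries, the smallest value it allows, so none of these shares can pass 0.05.

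Ratios were computed for 7 pairs of members, and each of the 7 was higher with HA-TAZ, without overlap (exact two-sided permutation p = 0.1 each, 0.1 after Benjamini-Hochberg adjustment over the 7 pairs). In each pair the member with the larger log2 fold change is the numerator, and RELA and NFKB1 recur as denominators. The 7 are thus not independent and restate the changes of the members. The share of other gene pairs that separate in this way was not computed. The RELB to RELA ratio was 0.792, 0.688 and 0.812 with HA-TAZ and 0.263, 0.376 and 0.414 in controls, so that the level of the alternative activating subunit was closer to that of the canonical one with HA-TAZ. This was a change of 1.14 on the log2 scale, or 2.21-fold, and 0.95 without control a. The NFKB2 to NFKB1 ratio was 4.24, 3.74 and 4.28 against 2.65, 3.09 and 3.48, a change of 0.42 on the log2 scale. The BCL3 to NFKB1 ratio was 0.943, 0.890 and 0.966 against 0.445, 0.499 and 0.495, a change of 0.96. The REL to RELA ratio changed by 0.51, the NFKBIA to RELA ratio by 0.53, the NFKBIE to NFKBIB ratio by 0.43 and the NFKBIZ to NFKBIA ratio by 0.38 on the log2 scale. When only the most abundant transcript of each gene was used, the NFKB2 to NFKB1 change was 0.18, the RELB to RELA change 1.74, the NFKBIA to RELA change 0.95 and the NFKBIE to NFKBIB change 0.11. For RELA this transcript was ENST00000532999.1, at means of 10.9 TPM with HA-TAZ and 18.4 TPM in controls, with overlap. Another coding RELA transcript of similar level, ENST00000406246.3, was at 15.5 and 12.3 TPM, in the opposite direction. The values with RELA therefore depend on the transcript taken.

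**Figure D3:**
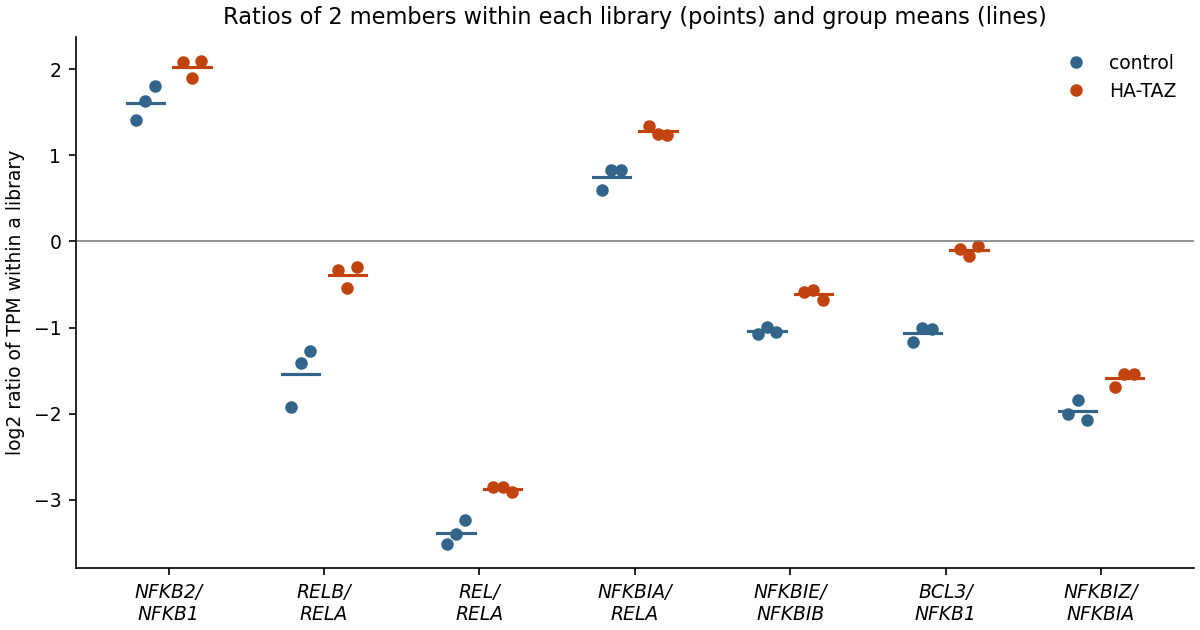
Log2 ratio of the TPM of 2 members in each library (points) with group means (lines), for 7 pairs and 3 libraries per group. In all 7 pairs the HA-TAZ libraries lie above the controls, with the largest difference of means for RELB over RELA (1.14) and the widest gap between the groups for BCL3 over NFKB1 (0.84).

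Single transcripts showed which forms made up these levels. Of the 94 transcripts, 50 had a mean of at least 1 TPM and were tested among 57448 transcripts with the same method. Transcript values carry more error than gene sums, because reads shared between forms must be divided by estimation. Of the 50, 4 were called higher and none lower (limma, adjusted p under 0.05), where 0.432% of all transcripts were called higher. None of the 50 was called in a fit that left out any 1 of the 6 libraries. At an unadjusted p under 0.05, 34 were higher and 1 was lower, and 13.1% of all transcripts were higher. Of the 34, 5 reached the level filter only through their HA-TAZ level, and without them 29 of 45 were higher. The fitted change was positive for 44 and negative for 6. In the authors' deposited table, which tests each transcript by sleuth, 73 of the 94 had statistics. Of these, 24 passed a q-value of 0.05 with a positive effect and none with a negative effect, against 4.08% and 1.60% of all its transcripts.

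The 4 called transcripts belong to BCL3, NFKBIZ and RELB. The main coding transcript of BCL3, ENST00000164227.5, was at 10.1, 9.59 and 11.2 TPM with HA-TAZ and 3.999, 4.24 and 5.04 TPM in controls (log2 fold change 1.32, SE 0.14, limma, adjusted p = 0.0342). All HA-TAZ libraries were above the controls, and the transcript was 47.4 ± 4.79% of the gene's TPM with HA-TAZ and 37.7 ± 7.56% in controls (SD, n = 3 each), with overlap. The main RELB transcript, ENST00000540120.1, was at 12.4, 16.8 and 16.3 TPM with HA-TAZ and 7.11, 6.67 and 8.49 TPM in controls (log2 fold change 1.21, SE 0.15, limma, adjusted p = 0.0429). Its type is not given, since GENCODE release 29 did not hold it. For NFKBIZ, the retained-intron transcript ENST00000486444.1 had a log2 fold change of 1.102 (SE 0.11, limma, adjusted p = 0.0263), and the coding transcript ENST00000394054.2 had 1.07 (SE 0.14, limma, adjusted p = 0.0493).

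The fitted changes of the forms of a gene did not all have the same sign, although no form was called lower. For RELA, the coding transcript ENST00000406246.3 was at 14.97, 14.5 and 16.9 TPM with HA-TAZ and 10.2, 13.6 and 13.05 TPM in controls, higher in every HA-TAZ library. Its effect in the authors' deposited table was 0.464 as a natural log with a q-value of 0.0224, while the limma test gave an adjusted p of 0.120. A second coding transcript, ENST00000532999.1, was at 11.3, 14.0 and 7.53 TPM with HA-TAZ and 27.0, 15.95 and 12.3 TPM in controls, and control a alone held the highest value. Its groups overlapped, and its log2 fold change of −0.39 was not called (SE 0.28, limma, adjusted p = 0.431). The authors' q-value for it was 0.694. In NFKB1, ENST00000509165.1 was at 1.56, 1.498 and 1.78 TPM with HA-TAZ and 4.02, 3.07 and 3.13 TPM in controls, and its log2 fold change was −0.54 (SE 0.11, limma, adjusted p = 0.0840). It was the only transcript lower at an unadjusted p under 0.05, while the transcript ENST00000226574.4 of the same gene was higher in every HA-TAZ library at 5.83 to 6.54 TPM against 4.95 to 5.70 TPM.

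Transcripts that retain an intron, which are common in RNA sequenced without selection of poly(A) tails, made up a large part of some members. They were 54.7 ± 1.24% of NFKBIZ TPM with HA-TAZ and 53.5 ± 2.40% in controls, and 38.7 ± 2.76% and 35.5 ± 2.81% of NFKBIA (SD, n = 3 each), with overlap in both genes. In BCL3 they took 43.1 ± 4.41% with HA-TAZ and 50.6 ± 12.6% in controls (SD, n = 3 each). The groups overlapped there too, and also in NFKB1 and RELA. In RELB they took 19.4, 15.7 and 17.5% with HA-TAZ and 26.3, 22.2 and 25.0% in controls, lower in every HA-TAZ library. In NFKB2 they took 10.2 ± 0.651% and 13.001 ± 1.40% (SD, n = 3 each), again lower without overlap. How often this share separates among all genes was not computed. When only transcripts typed as coding were summed, NFKB1 had a log2 fold change of 0.23 and was called (limma, adjusted p = 0.0260). Some members overlap other genes, and the use of the strand in quantification is not given in the sources used here. The coding gene SIRT2 lies on the strand opposite to NFKBIB and had means of 10.9 TPM with HA-TAZ and 14.8 TPM in controls, so the value of NFKBIB is uncertain to that extent. REL overlaps the non-coding genes AC010733.2, at 4.92 and 7.17 TPM, and RNU4-51P, at 3.78 and 4.72 TPM, on its own strand. Their levels are near or above that of REL and the strand cannot separate them, so the value of REL is uncertain as well.

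**Figure D4:**
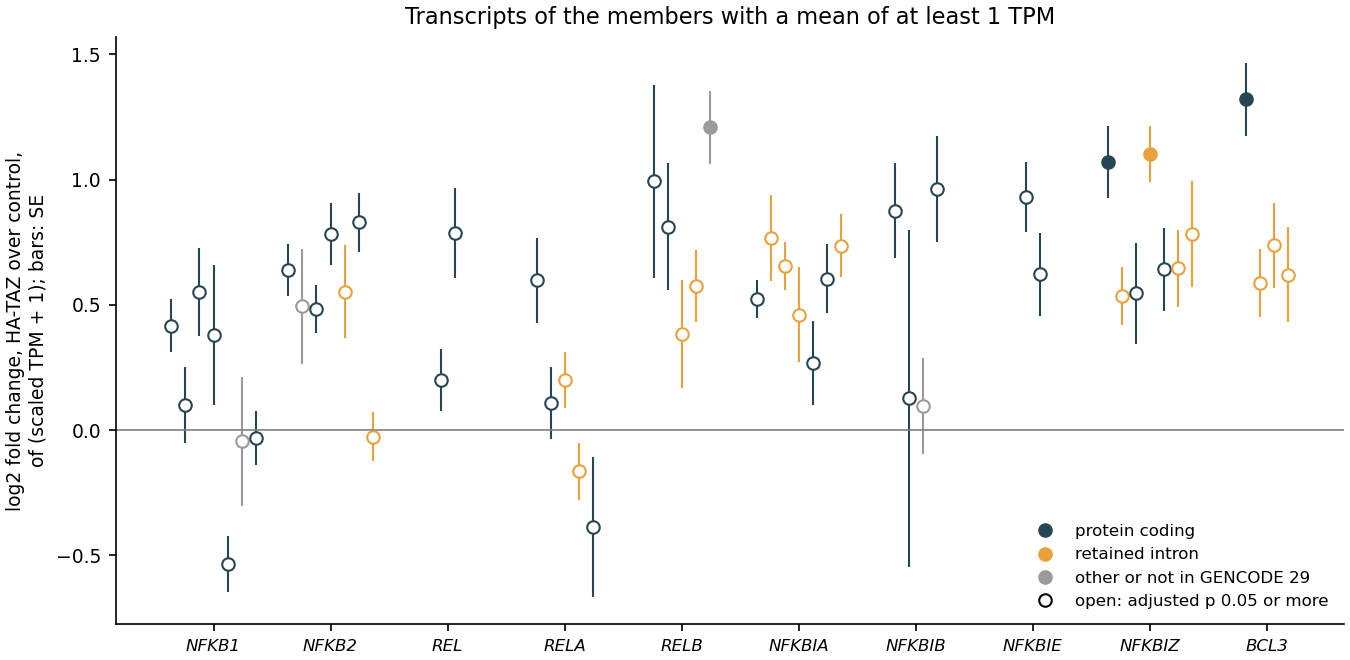
Log2 fold change, HA-TAZ over control, of the 50 tested transcripts by gene, with SE as bars and colours for transcript types. The 4 filled points are the transcripts with an adjusted p under 0.05, in RELB, NFKBIZ and BCL3, and 44 of the 50 points lie above 0.

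The other genes of the pathway were read from fixed lists, against the same share of all genes called higher, 4.67%. Upstream, little passed the test. Of 12 kinases, which include the IkB kinases CHUK and IKBKB and the alternative-route kinase MAP3K14, 10 were tested and none was called in either direction (limma, 4 higher and 0 lower at an unadjusted p under 0.05, where 16.6% of all genes were higher), with a median log2 fold change of 0.12. TBK1 had 0.07 (limma, adjusted p = 0.558) and IKBKB 0.19 (limma, adjusted p = 0.118). IKBKG, which encodes the scaffold of the kinase complex, was listed at 0 under the gene ID of the primary assembly and at 18.0 to 24.0 TPM over the 6 libraries under a second ID. Of 21 receptors and ligands, 9 were tested and none was called (limma, 0 higher and 1 lower at an unadjusted p under 0.05), with a median of 0.06. TNFRSF17, the myeloma receptor known as BCMA, had a log2 fold change of −0.05 and TNFRSF1A, a receptor for TNF, 0.20. As deposited TNFRSF17 was at 41.02 to 42.5 TPM with HA-TAZ and 50.6 to 55.6 TPM in controls and was called lower, at −0.35 (limma, adjusted p = 0.0311). Of the adaptors and ligases, 16 of 17 were tested and TRAF1 alone was called. TRAF1 reached the level filter only through its HA-TAZ level, and without it 0 of 15 were called higher (limma; 7 at an unadjusted p under 0.05). TRAF1, a signalling adaptor that is itself a known NF-kB target, was at 3.79, 4.43 and 4.24 TPM with HA-TAZ and 0.452, 0.506 and 0.419 TPM in controls, and its log2 fold change was 1.98 (SE 0.09, limma, adjusted p = 0.00135). TRAF3, which restrains the alternative route, had −0.20 (limma, adjusted p = 0.201), and IRAK1, a kinase downstream of Toll-like receptors, 0.30 (limma, adjusted p = 0.0592). BIRC2, a ligase that acts with TRAF3, was listed at 0 in all 6 libraries.

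Of 13 genes that restrain the pathway or turn over its inhibitors, 5 rose and none fell, with a median log2 fold change of 0.23. TNFAIP3, the ubiquitin-editing enzyme A20, rose by 1.09 (limma, adjusted p = 0.0048), the deubiquitinase CYLD by 0.58 (limma, adjusted p = 0.0146), and the A20-binding proteins TNIP1 and TNIP2 by 0.38 and 0.50 (limma, adjusted p = 0.0146 and 0.0167). TANK, which binds TRAF proteins, rose by 0.30 (limma, adjusted p = 0.0331). With TPM as deposited 1 of the 5, TNFAIP3, was called. The ligase subunits SKP1 and CUL1 had 0.23 and 0.13 and were not called (limma, adjusted p = 0.0741 and 0.112).

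Known NF-kB target genes outside the family were mostly higher as well. Of 36 listed genes, 20 reached the level filter, and 17 of these rose and none fell, with a median log2 fold change of 0.93. With TPM as deposited the number was 11. CD80 reached the filter only through its HA-TAZ level, and without it 16 of 19 rose. The list was drawn up with earlier results of these data known, so its count is a description. The lowest adjusted p-values were those of CXCL10, a chemokine, at a log2 fold change of 3.38, ICAM1, an adhesion molecule, at 2.32, the death receptor gene FAS at 1.75, RGS1, a regulator of G protein signalling, at 2.14, MIR155HG, the host gene of a microRNA, at 2.35, and IRF1, a transcription factor, at 1.02 (limma, adjusted p = 0.000132 to 0.00243). Several of these, such as CXCL10, ICAM1 and IRF1, also respond to interferon, and the list does not separate the inputs. BCL2L1 and SOD2 were the most abundant genes that were not called, with log2 fold changes of 0.24 and −0.05 (limma, adjusted p = 0.0823 and 0.689). Of 7 genes used to read NF-kB activity in myeloma, 4 rose and none fell. These were PLEK at 2.23, CD74 at 0.93, TNFAIP3 at 1.09 and IL2RG at 0.78 (limma, adjusted p = 0.00111 to 0.0114), while MALT1 and WNT10A had 0.23 and 0.17 (limma, adjusted p = 0.0619 and 0.418). BIRC3, the remaining gene of this list, had 0.012 (limma, adjusted p = 0.947). TNFAIP3 was also counted above among the genes that restrain the pathway. Over all lists other than the family itself, 26 of 72 tested genes were called with scaled TPM, all of them higher. These include the 17 target genes, from the list drawn up with earlier results known, and TRAF1. This count is therefore a description as well. With TPM as deposited the number was 17, of which 15 were higher and 2 lower.

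**Figure D5:**
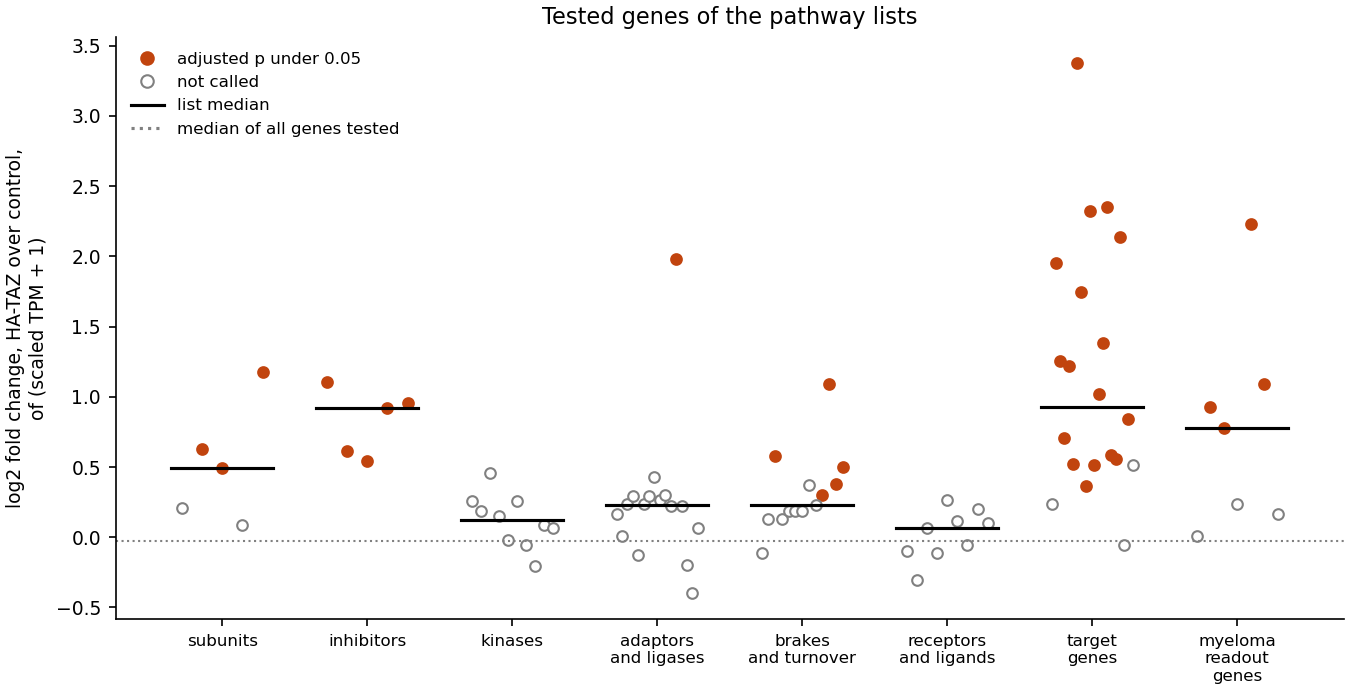
Log2 fold change, HA-TAZ over control, of each tested gene in the 8 lists of the pathway, with filled points at an adjusted p under 0.05 and a line at each list's median. The lists of inhibitors and target genes have medians of 0.92 and 0.93, kinases and receptors 0.12 and 0.06, and all genes tested −0.03 (dotted).

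RELB, the member with the largest change, was compared with other genes over the 6 libraries. The 3 most alike by Pearson correlation of log2(scaled TPM + 1), among 12612 genes with a mean of at least 5 TPM, were a copy of HLA-C (r = 0.9996), the mucin gene MUC1 (r = 0.9996) and RGS16 (r = 0.9995). The points share 6 libraries in 2 groups, and 2170 of the 12612 genes (17.2%) reached an r of 0.9. The log2 fold changes were 0.57 for the HLA-C copy, 2.25 for MUC1 and 0.54 for RGS16.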

How the data were processed

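The authors deposited TPM per transcript for 6 libraries and a table of a Wald test per transcript whose effects are natural log values, with p-values and q-values, per the file headers. The submitters' processing notes name kallisto 0.46.0, sleuth 0.30.0, FastQC 0.11.91, MultiQC 1.92 and GRCh37, without their roles. Per the labels' protocols, stranded total RNA libraries were prepared after DNase digestion and ribosomal depletion, and read from both ends. The annotation release is not given in the sources used here.

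Transcripts were added up per Ensembl gene ID, named as in the authors' table. Where a symbol had several IDs, that of the primary assembly in GENCODE release 29 was used, and copies such as those of TAP1 and PSMB9 may split reads. Genes and transcripts with a mean of at least 1 TPM were tested. Libraries were scaled by median-of-ratios factors over 21512 genes above 0 in all libraries. limma 3.58.1 with an intensity trend (R 4.3.3) gave two-sided tests of log2(scaled TPM + 1), adjusted by Benjamini-Hochberg. Fold changes on this scale understate changes near the pseudocount of 1. Single values were compared with an exact permutation test. Tables and plots were made with pandas 2.3.3, numpy 2.4.6 and matplotlib 3.10.9 in Python 3.11.15. Alternatives were other scalings, filters, a pseudocount of 0.1, no trend, and leaving out each library.

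All 10 members were named. Of each other list, called genes were named in order of adjusted p, up to 6 per direction, with the 2 most abundant genes not called, and the 3 genes most like the member of largest change. Members and lists were chosen with earlier results of these data known.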

Additional observations from a re-analysis of the deposited data

How the results depend on the processing

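Of 110 values recomputed under an alternative other than leaving out a library, 85 kept their direction and side of the threshold, moved by less than the spread between libraries or, for counts, stayed within 1.5 times. Genes called numbered 1652, and 3329 with TPM as deposited, 691 without a level filter, 758 without the trend and 117 to 435 without 1 library. Members called numbered 8, 5 as deposited and 3 to 7 without 1 library. Pathway genes called numbered 26, 17 as deposited (15 higher, 2 lower) and 13 to 22 without 1 library. Member transcripts called numbered 4, 1 as deposited, 2 with protein-coding factors, 0 without a level filter, 11 at a mean of at least 5 TPM, 2 without the trend, 24 by the q-values of the authors' deposited table, and 0 in each fit without 1 library.

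As deposited, the log2 fold change was −0.080 for NFKB1 and −0.20 for RELA, a change of sign for both, and REL at 0.25, NFKBIA at 0.32 and NFKBIB at 0.25 were no longer called. NFKBIB, at 0.54, was also not called without a level filter or the trend (limma, adjusted p = 0.0611 and 0.0516). NFKB1 was called at 0.23 when only coding transcripts were summed, an alternative chosen after seeing the data. Without 1 library the log2 fold changes ranged from 0.54 to 0.68 for NFKB2, 0.47 to 0.53 for REL, 1.06 to 1.25 for RELB, 0.45 to 0.59 for NFKBIB and 0.82 to 0.98 for NFKBIE. With the most abundant transcript of each gene, changes of log2 ratios were 0.18 for NFKB2/NFKB1, 1.74 for RELB/RELA, 0.68 for REL/RELA, 0.95 for NFKBIA/RELA, 0.11 for NFKBIE/NFKBIB and 0.26 for NFKBIZ/NFKBIA. The ratios with RELA used ENST00000532999.1, and another coding RELA transcript of similar level differed in the opposite direction. For NFKBIZ the transcript used, ENST00000495089.1, retains an intron. The cause of the differences from the gene sums was not tested.

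No paired analysis was possible because the control columns carry a name found in no label, so their numbers cannot be tied to numbered samples. TPM keeps no depth, so no counting error per library can be given.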

Other observations

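BIRC2, which encodes the ligase cIAP1, was listed at 0 TPM in all 6 libraries for each of its 12 transcripts. In the gene order of RefSeq GRCh38.p14, TMEM123 next to it and, further along, DCUN1D5, DYNC2H1, PDGFD and DDI1 were listed at 0 in all libraries as well. BIRC3, the neighbour on the other side, which encodes cIAP2, was at 0.879 to 1.11 TPM in HA-TAZ and 1.13 to 1.39 TPM in control libraries. YAP1, the paralogue of TAZ and the next gene beyond BIRC3, reached at most 0.00874 TPM in any library. MMP7, which lies between TMEM123 and the matrix metalloproteinase genes MMP20 and MMP27, was at 0.955 to 1.45 TPM in HA-TAZ and 1.84 to 1.98 TPM in control libraries.

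Of the listed pathway genes outside the family that were above 0 in some library but below the level filter, 26 in all, 9 were higher and 2 were lower with HA-TAZ in scaled TPM without overlap. Of all 24720 such genes below the filter, 5.15% were higher and 8.50% lower. As deposited the counts were 8 and 4, beside 3.14% and 15.5%. The following were picked out after their values were seen. MAP3K8, a kinase of the canonical route, was at 0.646, 0.474 and 0.455 TPM in HA-TAZ 1 to 3 and at 0.0332, 0.0377 and 0.265 TPM in control a to c. CCL4, a chemokine, was at 1.62, 1.42 and 0.684 TPM against 0, 0.156 and 0.0786 TPM. EBI3, a cytokine subunit, was at 0.180, 0.436 and 0.420 TPM against 0, 0 and 0.0210 TPM. The 2 lower genes were the chemokine CCL22, at 0.404, 0.499 and 0.304 TPM against 0.651, 0.628 and 0.583 TPM, and the ligand CD40LG, at 0.0534, 0.0656 and 0.0590 TPM against 0.244, 0.0764 and 0.0727 TPM. All of these are near the level where few reads support a value. LTA, which encodes the ligand lymphotoxin alpha, was at 1.49, 1.30 and 1.195 TPM against 0.694, 0.560 and 0.526 TPM under the gene ID used, and a further LTA ID held 6.09, 7.88 and 6.20 TPM against 5.27, 5.66 and 3.49 TPM, so its value is uncertain.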
